A study of Homo sapiens with 6 samples.

Results

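RNA polymerase II occupancy was mapped by ChIP-seq in SK-Hep1 cells, an established human line derived from a liver adenocarcinoma, and the regions described here held a peak in the control and in the supplemented cells but none in the cells with knockdown alone. The 3 conditions were a control siRNA (siCtrl, labelled nc), an siRNA against malic enzyme 2 (siME2), and that same siRNA plus the metabolite α-ketoglutarate (siME2+αKG). The siRNA sequences and the dose, form and time of the supplement were not given in the sources used here. Each condition had 1 ChIP library with its own input library, 6 samples in all. By title, siCtrl and siME2 share the replicate number 2, while siME2+αKG is unnumbered, and whether the 3 were prepared together is not given in the sources used here. Each value therefore describes 1 library, and no difference between conditions could be tested.

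Peaks of the 3 lists on chromosomes 1 to 22 and X were merged wherever they overlapped by at least 1 bp, which gave 37552 regions. Of these, 2294 regions held a siCtrl peak and a siME2+αKG peak and no siME2 peak, and they are called siCtrl/αKG regions below. They made up 6.11% of all regions and 11.4% of the 20088 regions that held both a siCtrl and a siME2+αKG peak. The mirror class, called siCtrl/siME2 regions, held a siCtrl and a siME2 peak and no siME2+αKG peak. It had 2004 regions, 10.1% of the 19798 with both of its peaks. Another 17794 regions held a peak of every library, and 1117 held siME2 and siME2+αKG peaks without siCtrl, 5.91% of the 18911 with both. Because presence and absence of peaks chose the classes, the sizes and heights of the classes are descriptions, and both classes share the siCtrl library.

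RNA polymerase II assembles at promoters and in animal cells often pauses shortly after the start site, so its ChIP signal is usually highest there and lower along the gene body. Malic enzyme 2 is a mitochondrial enzyme that turns malate into pyruvate, and α-ketoglutarate is an intermediate of the citric acid cycle and a co-substrate of many dioxygenases. Genes for DNA replication and mitosis are transcribed in waves through the cell cycle. Their promoters often carry E2F sites, CCAAT boxes and the cell cycle genes homology region (CHR), which is bound by complexes that hold mitotic genes down outside of G2 and M phase.

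The siCtrl/αKG promoters included several genes of this kind. Of those without a siME2 peak at any start site, 4 are shown as GRCh37 sequence from 250 bases before to 50 bases after the annotated start site nearest the siCtrl summit, written along the strand of the gene. Capitals mark matches on either strand to an E2F motif (TTTGGCGC, TTTCCCGC, TTTCGCGC or TTTGCCGC), the CCAAT box (CCAAT), the CHR (TTTGAA or TTCGAA) or a TATA box (TATAAA).
MCM3, chr6:52149491-52149790, minus strand: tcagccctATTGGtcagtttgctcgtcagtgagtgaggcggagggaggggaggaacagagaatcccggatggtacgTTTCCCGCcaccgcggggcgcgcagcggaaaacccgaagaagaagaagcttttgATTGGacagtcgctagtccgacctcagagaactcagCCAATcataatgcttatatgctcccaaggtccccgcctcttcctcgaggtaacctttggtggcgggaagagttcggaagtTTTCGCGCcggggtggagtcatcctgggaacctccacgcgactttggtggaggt
SPC25, chr2:169746891-169747190, minus strand: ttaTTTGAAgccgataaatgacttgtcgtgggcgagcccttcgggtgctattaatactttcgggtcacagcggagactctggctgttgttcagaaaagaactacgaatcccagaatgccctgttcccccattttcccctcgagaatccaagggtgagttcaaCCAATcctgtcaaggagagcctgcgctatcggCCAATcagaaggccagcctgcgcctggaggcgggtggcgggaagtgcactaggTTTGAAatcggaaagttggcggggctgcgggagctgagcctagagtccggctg
BUB1B, chr15:40453020-40453319, plus strand: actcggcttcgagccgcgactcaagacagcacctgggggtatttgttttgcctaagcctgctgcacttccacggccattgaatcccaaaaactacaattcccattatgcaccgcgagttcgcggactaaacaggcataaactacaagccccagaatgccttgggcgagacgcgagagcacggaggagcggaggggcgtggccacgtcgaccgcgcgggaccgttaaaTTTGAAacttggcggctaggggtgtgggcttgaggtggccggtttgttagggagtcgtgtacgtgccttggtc
RFC3, chr13:34392036-34392335, plus strand: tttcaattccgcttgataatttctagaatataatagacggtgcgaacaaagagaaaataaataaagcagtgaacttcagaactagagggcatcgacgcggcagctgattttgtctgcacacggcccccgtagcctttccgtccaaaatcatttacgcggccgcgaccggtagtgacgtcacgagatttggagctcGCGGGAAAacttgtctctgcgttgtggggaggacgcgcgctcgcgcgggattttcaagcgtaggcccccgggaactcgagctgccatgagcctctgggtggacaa

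Beside them stands the promoter of PTHLH, which was among the leading siCtrl/siME2 regions and had no siME2+αKG peak at any start site. It held none of those motifs and so has no capitals. PTHLH was picked by height, whereas the promoters above came from lists of cell cycle genes, so this contrast does not compare the classes.
PTHLH, chr12:28123018-28123317, minus strand: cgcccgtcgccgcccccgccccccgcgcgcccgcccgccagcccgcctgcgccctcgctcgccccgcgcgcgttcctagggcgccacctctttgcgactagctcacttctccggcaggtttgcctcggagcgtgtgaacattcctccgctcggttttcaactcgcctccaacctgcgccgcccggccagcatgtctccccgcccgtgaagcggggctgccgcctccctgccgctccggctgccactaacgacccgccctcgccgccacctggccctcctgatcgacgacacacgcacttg

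MCM3 encodes a subunit of the replicative helicase, and its region lay at the start of the gene on chromosome 6, from 52149040 to 52149564 (hg19). Its summit held 47 fragments in siCtrl and 37 in siME2+αKG, and the nearest siME2 peak was 76930 bp away. These were normalised heights of 3.61 and 2.86 fragments per 1000000 filtered ChIP tags, and the siCtrl count would be 37.7 fragments at the siME2 depth. The lowest summit in the siME2 list held 7 fragments. MCM3 had the highest siCtrl summit of all siCtrl/αKG regions, and the authors' fold enrichment over input was 23.8 there.

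SPC25, which encodes a subunit of the NDC80 complex that binds kinetochores to microtubules, had 33 fragments in siCtrl and 30 in siME2+αKG, with the nearest siME2 peak 433049 bp away. KNL1, the scaffold of the outer kinetochore, had 28 in siCtrl and 27 in siME2+αKG. RFC3, a subunit of the loader of the replication clamp, had 26 in siCtrl and 31 in siME2+αKG. At these 3 promoters the values of both libraries lay close together, and no siME2 promoter peak was listed at any of their start sites. BUB1B, which encodes a kinase of the spindle checkpoint, had 27 fragments in siCtrl and 21 in siME2+αKG. LIG1, the ligase that joins fragments of the lagging strand, had 25 in siCtrl and 33 in siME2+αKG, in a region that also covers a start site of its neighbour ZSWIM9. PRIM1, the catalytic subunit of primase, had 31 in siCtrl and 22 in siME2+αKG, in a promoter region shared with HSD17B6. For all 7 of these genes the interval of the siME2+αKG to siCtrl ratio included equality, and that interval covers counting error only. In bulk chromatin, fewer cells with polymerase at a promoter and less polymerase per cell cannot be told apart.

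The siME2 library was the shallowest, and peak height went along with absence. The siCtrl library had 13006504 filtered ChIP tags, the siME2 library 10445326 and the siME2+αKG library 12955596, so siME2 had 80.3% of the siCtrl tags. The siCtrl/αKG regions had a median of 14 fragments in siCtrl (from 8 to 47) and of 15 in siME2+αKG (from 8 to 43). The siCtrl/siME2 regions had a median of 15 in siCtrl (from 8 to 53) and of 12 in siME2 (from 7 to 42). Regions with a peak in every library had medians of 41, 32 and 38 for siCtrl, knockdown and supplement. Both classes thus consisted mostly of weak peaks, and 113 siCtrl/αKG regions and 63 siCtrl/siME2 regions had at least 20 fragments in both of their libraries. With at least 1.5 fragments per 1000000 tags in both libraries, a threshold that scales with depth, the order turned to 113 against 149.

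In both classes the share of regions without a peak of the remaining library fell with siCtrl height, and it was higher for siME2 in the lowest bands. At 8 to 10 fragments it was 67.1% for siME2 and 60.8% for siME2+αKG, with intervals that overlap. Among regions with 11 to 13 siCtrl fragments, 54.2% (95% Clopper-Pearson interval 51.6 to 56.7) of those that also held a siME2+αKG peak lacked a siME2 peak. In the mirror class 47.4% (44.7 to 50.2) lacked a siME2+αKG peak. At 17 to 20 fragments the shares were 19.4% and 19.6%, and at 26 to 32 fragments 2.45% and 2.90%. From 33 to 47 fragments, 9 of 3222 regions lacked siME2 and 2 of 3215 lacked siME2+αKG. Of regions in that range with a peak in every library, the lowest siME2 summit held 12 fragments and the median summit 31. At 48 or more fragments 0 of 7629 lacked siME2, which an exact interval puts at no more than 0.0483%. With 1 library per condition, a property of the library and an effect of the treatment cannot be told apart.

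The 9 siCtrl/αKG regions with 33 or more siCtrl fragments were MCM3, E2F8, an intron of SLC52A2, a start site of a gene that does not code for protein on chromosome 5, PER1, H4C12, GAL, LIMK1 and SPC25. E2F8, an atypical E2F that represses S-phase genes, had 40 fragments in siCtrl and 21 in siME2+αKG, and a siME2 peak lay 329 bp away. PER1, a repressor of the circadian clock, had 33 and 31, with a siME2 peak at 258 bp. GAL, which encodes the neuropeptide galanin, had 33 and 22, and LIMK1, a kinase that acts on cofilin, had 33 and 14. At E2F8 and LIMK1 the interval of the log2 siME2+αKG to siCtrl ratio lay below 0 (−1.76 to −0.127 and −2.25 to −0.290). These regions were picked for high siCtrl summits, the denominator of the ratio, which favours values below 0. Over all 2294 siCtrl/αKG regions the interval lay below 0 at 5. The 3 siCtrl/siME2 regions of that height lay at a start site of PDE4DIP, an anchoring protein of the Golgi and centrosome, at PMM1, a phosphomannomutase, and in an exon of GJD3, a connexin gene. PDE4DIP had 53 fragments in siCtrl and 42 in siME2, over an input background of 10.3 fragments, the highest of its class.

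**Figure D1:**
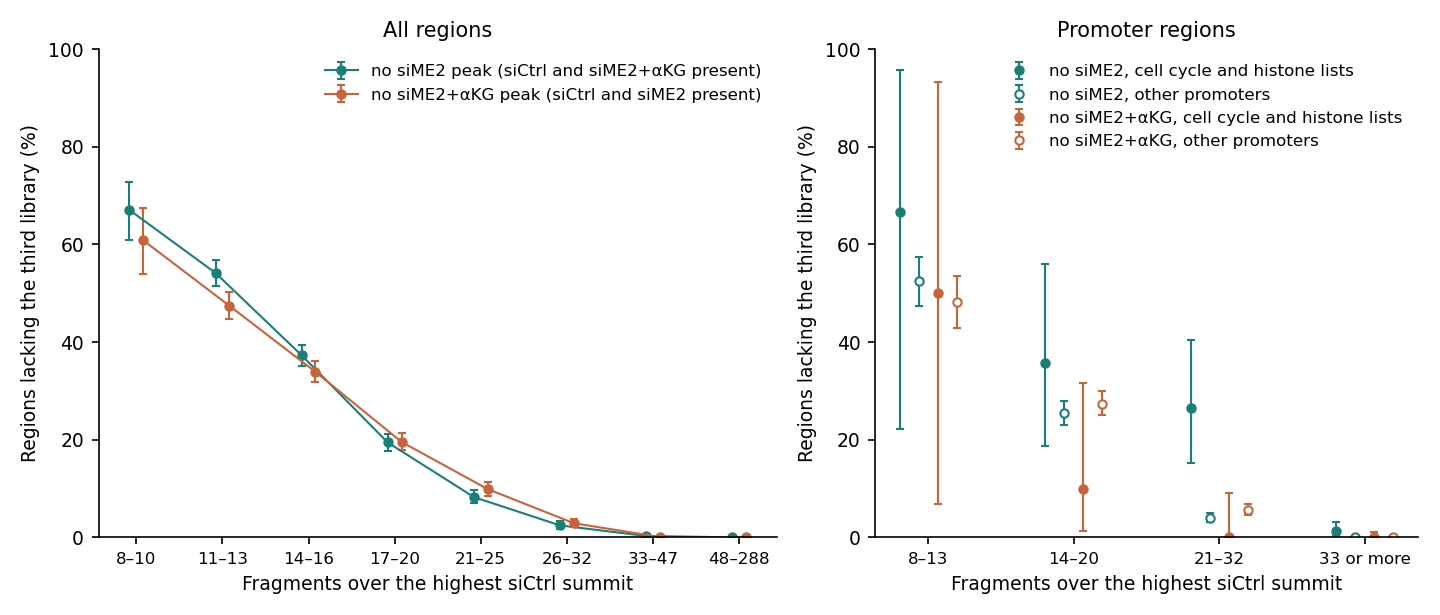
Share of regions that lack a peak of the third library (percent, y) by fragments over the highest siCtrl summit (x), with 95% Clopper-Pearson intervals; left, all regions, and right, promoter regions of the 8 cell cycle and histone lists (filled) and all other promoters (open). On the left both shares fall with height, from 67.1% and 60.8% in the lowest band to 2.45% and 2.90% at 26 to 32 fragments, whereas on the right the list promoters with 21 to 32 fragments lack siME2 in 26.4% and siME2+αKG in 0% of cases.

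Genes of the cell cycle were more frequent among siCtrl/αKG promoters than among siCtrl/siME2 promoters. The 8 lists of cell cycle, replication, mitosis and histone genes held 356 genes, chosen with earlier results of these data known. Of 329 list genes with a promoter region that held both a siCtrl and a siME2+αKG peak, 29 (8.81%, 5.98 to 12.4) had such a region without siME2, against 4.93% of all 12138 protein-coding genes so placed. In the mirror class the count was 4 of 316 (1.27%, 0.346 to 3.21), against 5.16% of 12195 genes. No siME2 promoter peak at any start site was found for 12 of the 329 (3.65%, 1.90 to 6.28), against 1.18% of all 12138 genes. Among genes with a siCtrl/αKG promoter region, these were 12 of 29, against 143 of 599. For siME2+αKG the count was 0 of 316, against 1.71% of all 12195 genes. The 29 genes include AURKB, ATIC and TACC3, whose regions lay at or past the 3′ end of the gene.

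Counted as regions in bands of siCtrl height, 14 of 53 list promoters with 21 to 32 fragments lacked siME2 (26.4%, 15.3 to 40.3), and 3.94% (3.09 to 4.95) of 1776 other promoters did. In the same band 0 of 39 list promoters lacked siME2+αKG (upper limit 9.03%), and 5.64% (4.62 to 6.81) of 1808 other promoters did. At 14 to 20 fragments 10 of 28 list promoters lacked siME2 (35.7%, 18.6 to 55.9), and 25.4% of 1232 other promoters did, which lies within that interval. Among the leading promoter genes by the lower of the 2 heights, 6 of 25, 12 of 50 and 17 of 100 in the siCtrl/αKG class were on the 8 lists. The siCtrl/siME2 class had 0 of 25, 0 of 50 and 1 of 100. Of promoter regions listed in siCtrl alone, 54 of 1785 (3.03%) belonged to list genes, as did 372 of 12357 (3.01%) with a peak in every library and 32 of 626 (5.11%) siCtrl/αKG ones. The share in siCtrl/siME2 promoters was 4 of 630 (0.635%).

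Taken singly, the 8 lists were small, and the share of 4.93% over all genes lay within the interval of 7 of them and just below that of the replisome list. Within the G1/S network, 4 of 29 genes (13.8%, 3.89 to 31.7) had a siCtrl/αKG promoter region: E2F8, CDKN1B, CCNE2 and E2F2. CCNE2, which encodes cyclin E2, had 24 fragments in siCtrl and 17 in siME2+αKG, and a siME2 peak lay 1019 bp away. E2F2, an activator of S-phase genes, was weak, with 13 and 12. The region assigned to CDKN1B, the gene of the inhibitor p27, lay at an upstream start site of the annotation and 19786 bp from the nearest siME2 peak, with 29 and 20 fragments, and siME2 listed a CDKN1B promoter peak elsewhere. Of 27 G1/S genes in the mirror comparison 0 had a siCtrl/siME2 region. Some list regions are also promoter regions of a neighbour and cannot be assigned to either gene alone. Such pairs were CCNE2 with NDUFAF6, CDKN1B with GPR19, PRIM1 with HSD17B6 and CDC45 with UFD1.

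The replisome and origin licensing list had 7 of 58 genes (12.1%, 4.99 to 23.3): MCM3, RFC3, LIG1, PRIM1, CDC45, PCLAF and MCM7. PCLAF, a partner of the replication clamp, had 32 fragments in siCtrl and 21 in siME2+αKG, and CDC45, another helicase component, had 21 in each. For both, and for MCM7, siME2 listed a peak in another region within 1 kb of an annotated start site of the gene. The nearest siME2 peak lay 5783 bp from the PCLAF region, 663 bp from that of CDC45 and 271 bp from that of MCM7. At CDC45 and MCM7 it was not determined whether the siME2 peak belongs to a different start site. The mirror class held 1 of 54, PRIM2, the regulatory primase subunit, with 19 fragments in siCtrl and 16 in siME2. Nucleotide synthesis had 2 of 26 genes, the purine enzymes GART and ATIC, both with 14 in siCtrl, and the mirror class 0 of 26. The GART summit lay 877 bp past the nearest annotated start site, inside the gene. That of ATIC lay 947 bp past such a site and outside any protein-coding gene, so past the 3′ end of ATIC.

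Kinetochore, spindle and condensin genes had 8 of 82 (9.76%, 4.31 to 18.3), and the mirror class 1 of 79, the condensin gene NCAPH2. Beside SPC25 and KNL1 they were CENPW, CENPU, SKA2, KIF2C, TACC3 and SMC3. The TACC3 summit lay 1284 bp past the nearest annotated start site and outside any protein-coding gene, so past the 3′ end of TACC3. CENPW, which encodes a centromere protein, had 15 fragments in siCtrl and 17 in siME2+αKG, and the nearest siME2 peak was 352983 bp away. CENPU, another centromere protein gene, had 24 and 18, with a siME2 peak at 250 bp. SKA2, which helps hold kinetochores to microtubules, had 24 and 21, with a siME2 peak at 534 bp. The SKA2 region is also a promoter region of its neighbour PRR11, whose gene holds the summit. Mitotic kinase and entry genes had 3 of 32, BUB1B, AURKB and PKMYT1, and the mirror class 1 of 31, which was PKMYT1 at a second region. AURKB encodes the chromosomal passenger kinase. Its region had 23 and 25 fragments, with the summit 1768 bp past the nearest annotated start site, an alternative one, so that the region covers the 3′ end of the gene, and with a siME2 peak 3359 bp away. The anaphase-promoting complex and partners had 1 of 21, UBE2S, and recombination and Fanconi repair had 1 of 40 in both classes, EME1 and MUS81, which encode the 2 subunits of one nuclease.

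Replication-dependent histones had 3 of 41 genes (7.32%, 1.54 to 19.9), all in the cluster on chromosome 6, and the mirror class 0 of 38. H4C12 had 33 fragments in siCtrl and 19 in siME2+αKG, H4C11 had 32 and 19, and H3C10 had 24 and 15. The siME2+αKG summits were lower than the siCtrl ones at all 3, and each nearest siME2 peak was over 50 kb away. Histone genes have near-identical copies, so the placement of their reads is uncertain.

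**Figure D2:**
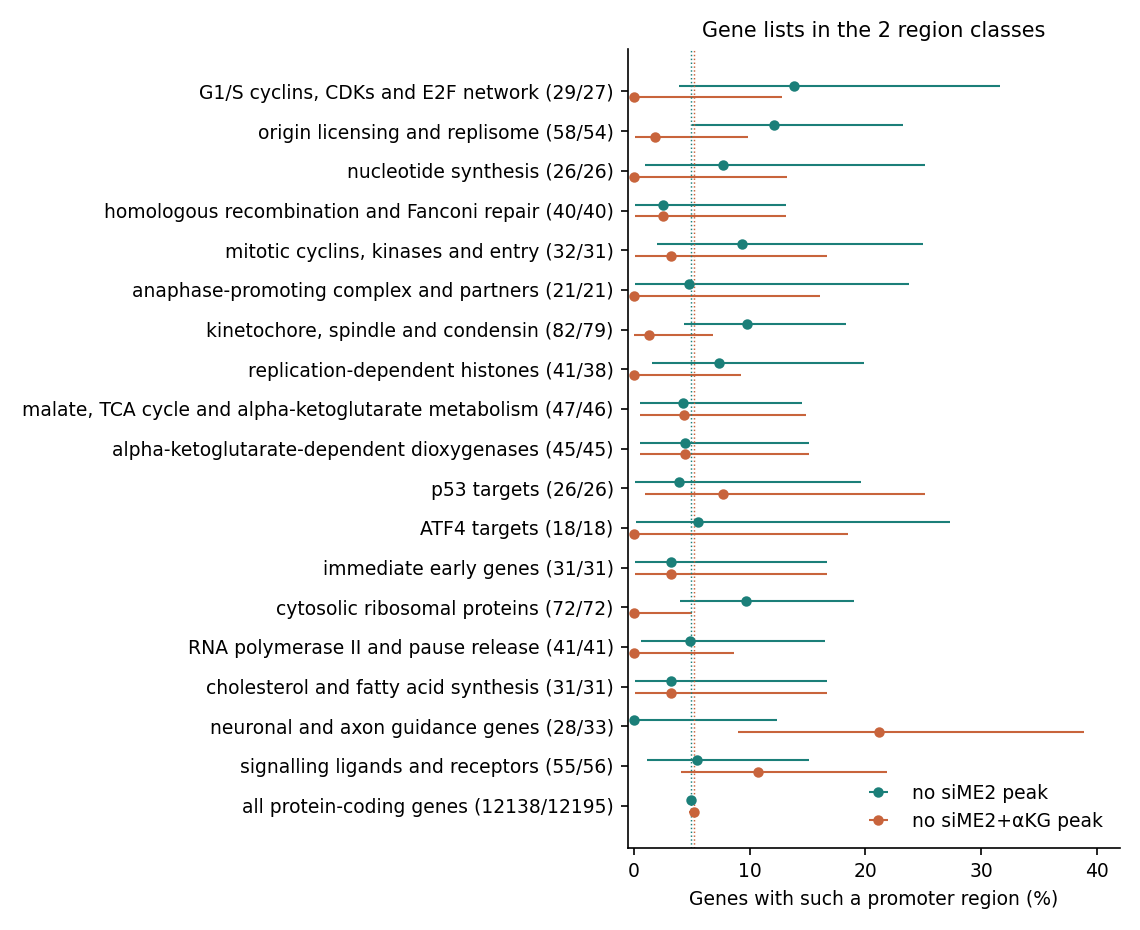
Share of each list's genes that had a promoter region lacking the third library (percent, x), for siME2 absent and for siME2+αKG absent, with 95% Clopper-Pearson intervals; the 2 numbers in parentheses are the genes with both other peaks in each class, and dotted lines mark all protein-coding genes. In the siME2-absent class the intervals of the G1/S and kinetochore lists include the 4.93% of all genes and that of the replisome list begins at 4.99%, and in the siME2+αKG-absent class the neuronal list (8.98 to 38.9) lies above 5.16%.

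The 24 leading promoter genes of the siCtrl/αKG class ran from MCM3 to AURKB, with siCtrl heights from 1.77 to 3.61 per 1000000 tags. Outside the cell cycle, ZNF391, a zinc finger gene, had 27 fragments in siCtrl and 39 in siME2+αKG. TP53I11, a p53-inducible gene, had 28 in each library, and B3GNT3, a glycosyltransferase gene, had 26 in each. DPF1, a subunit of neuronal chromatin remodelling complexes, had 25 and 33, and RDM1, a gene related to RAD52, had 25 and 37. The Notch ligand gene DLL4 had 24 and 29, and RNF20, a ubiquitin ligase for histone H2B that shares its region with PGAP4, had 24 and 27. In these 7 regions siME2 had no peak within 10 kb, and the siME2+αKG height equalled or exceeded that of siCtrl. The same held for CFAP69 (25 and 29) and ZNF404 (24 and 25). YPEL1 (31 and 24) was lower in siME2+αKG, with the nearest siME2 peak 22038 bp away. CFAP69, ZNF404 and YPEL1 had no siME2 promoter peak.

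Other leaders lay beside a siME2 peak. ACTR6, a chromatin remodelling subunit gene, had 27 and 26 fragments, with a siME2 peak 478 bp away. SASS6, which encodes the cartwheel protein of centrioles, and its neighbour TRMT13 shared a region with 24 in each library, 118 bp from a siME2 peak. BEND3 (27 and 23) and UBE4B (25 and 23) had a siME2 peak at 168 and 302 bp. Of the 24 genes, 17 had no siME2 peak at any start site. Among all 599 genes with a siCtrl/αKG promoter region, 143 (23.9%) were without one, and among 629 genes of the mirror class 208 (33.1%) had no siME2+αKG promoter peak.

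The leading siCtrl/siME2 promoters held other genes. PMM1 had 44 fragments in siCtrl and 28 in siME2, with a siME2+αKG peak 284 bp away. FAM171A2 had 31 and 27, KIRREL3, an adhesion molecule gene, had 29 and 25, and PTHLH, which encodes parathyroid hormone-related protein, had 28 and 23. NFKBIB and SIRT2 shared a region with 27 and 29, and ATP7A, a copper transporter gene, and PGK1, a glycolytic gene, shared one with 26 and 23. None of these 12 genes was on the cell cycle and histone lists.

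**Figure D3:**
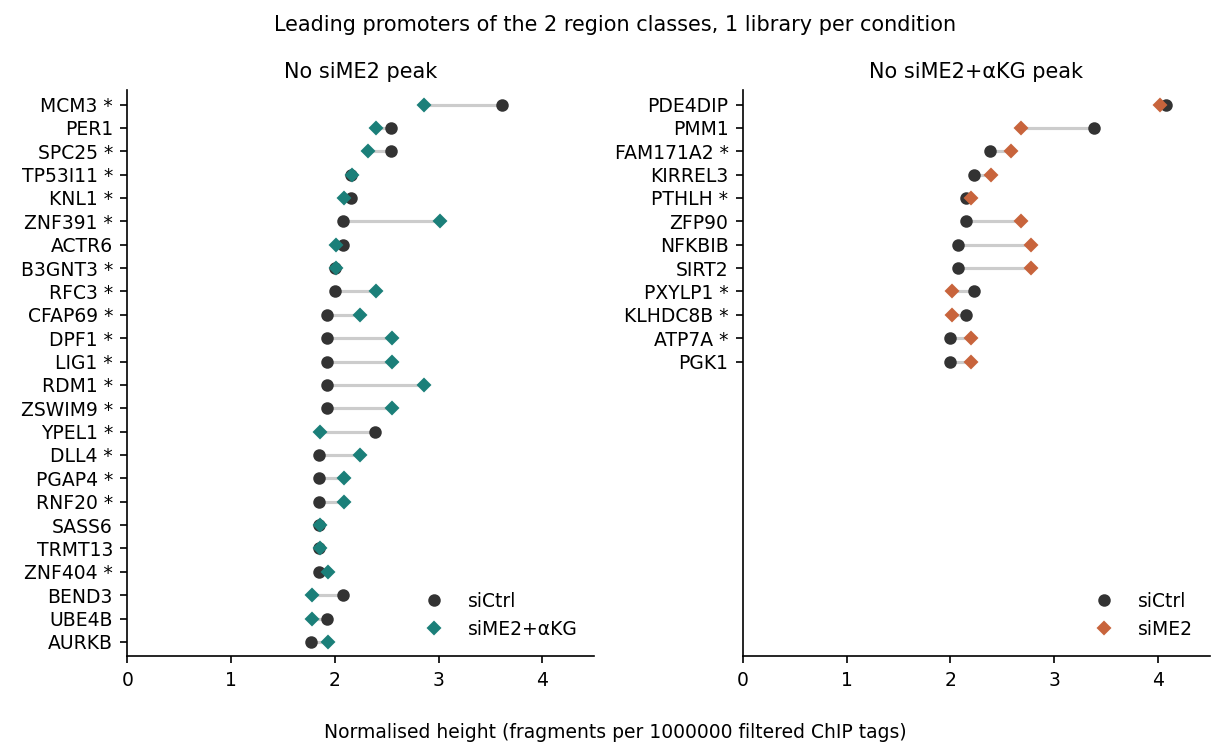
Normalised height (fragments per 1000000 filtered ChIP tags, x) of the 24 leading promoter genes without a siME2 peak and the 12 without a siME2+αKG peak, 1 library per point; an asterisk marks genes with no peak of the absent library at any start site. MCM3 leads on the left at 3.61 in siCtrl, and 17 of the 24 genes carry the asterisk.

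Outside the cell cycle, most lists stood near the shares of all genes, 4.93% in the siCtrl/αKG and 5.16% in the siCtrl/siME2 class. Neuronal and axon guidance genes had 0 of 28 genes in the siCtrl/αKG class (upper limit 12.3%) and 7 of 33 in the mirror class (21.2%, 8.98 to 38.9). The first interval includes the share of all genes, the second lies above it, and the 2 overlap. CDK5R2, an activator of CDK5, had 23 fragments in siCtrl and 28 in siME2, NRP2, a semaphorin co-receptor, had 17 and 22, and SHANK2, a synaptic scaffold, had 22 and 20. PLXNB1, a plexin, had 23 and 16. These 4 had no siME2+αKG promoter peak, nor had SYNGR1, whereas PLXNA1 and ROBO1 kept one. Signalling ligands and receptors had 3 of 55 (DLL4, FGF1 and KIT) and, in the mirror class, 6 of 56 with JAK3 (19 and 24) and LRP5 (23 and 14) among them.

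Cytosolic ribosomal protein genes had 7 of 72 in the siCtrl/αKG class (9.72%, 3.999 to 19.01) and 0 of 72 in the mirror class (upper limit 4.99%), and the 4.93% of all genes lies within the first interval. RPL9 had 16 fragments in siCtrl and 23 in siME2+αKG, and RPL5 had 16 and 18. All 7 genes kept a siME2 promoter peak at a start site of theirs, so none of them lacked siME2 throughout. Zinc finger genes, a set taken by symbol after their values were seen, had 13 of 428 and 16 of 425.

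Genes tied to the metabolite itself stood at the background in both classes. Malate, citric acid cycle and α-ketoglutarate genes had 2 of 47 (4.26%) and 2 of 46 (4.35%), and α-ketoglutarate-dependent dioxygenases had 2 of 45 in both (4.44%), against 4.93% and 5.16% of all genes. GPT, the alanine transaminase that makes or uses α-ketoglutarate, had 19 fragments in siCtrl and 20 in siME2+αKG and no siME2 promoter peak. The summit lay at −1259 bp from the nearest GPT start site and inside the gene PPP1R16A, which shares this promoter region. EGLN3, an oxygen-sensing prolyl hydroxylase, had 23 and 16, and siME2 listed a peak at some other EGLN3 start site. For p53 targets the counts were 1 of 26 and 2 of 26, for ATF4 targets 1 of 18 and 0 of 18, and for immediate early genes 1 of 31 in both. RNA polymerase II and pause-release genes had 2 of 41 and 0 of 41, and cholesterol and fatty acid genes 1 of 31 in both.

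Hepatocyte markers had no promoter peak in these cells, and mesenchymal ones did. Of 8 hepatocyte and 6 leukocyte markers, 0 had a promoter peak in any library. Of 10 endothelial and mesenchymal markers, 7 had one in each of the siCtrl and siME2+αKG lists and 6 in the siME2 list, whereas the endothelial genes TEK and CDH5 had none and PECAM1 was not in the annotation used. The difference was THY1, a surface antigen of mesenchymal cells, with 16 fragments in both siCtrl and siME2+αKG. Of the 3 epithelial markers, KRT19 had a promoter peak in every library, while EPCAM (24 in siCtrl and 17 in siME2+αKG) and CDH1 (17 and 13) had none in siME2. So few markers give an interval of 9.43% to 99.2%, and over all 12138 genes the share was 1.18%. At 14 to 20 siCtrl fragments, the band of THY1 and CDH1, 25.4% of promoters outside the cell cycle and histone lists lacked siME2. At 21 to 32, the band of EPCAM, 3.94% did.

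Fewer of the siCtrl/αKG regions lay at promoters than of the mirror class or of regions with a peak in every library. A promoter region lay within 1 kb of a start site of a protein-coding gene. This held for 626 of 2294 siCtrl/αKG regions (27.3%, 25.5 to 29.2), 630 of 2004 siCtrl/siME2 regions (31.4%, 29.4 to 33.5) and 69.4% of regions with a peak in every library. These 626 were 4.82% of the 12983 promoter regions with both peaks, and the 630 were 4.85% of 12987. Introns took 31.2% (29.3 to 33.1) of siCtrl/αKG and 26.1% (24.2 to 28.1) of siCtrl/siME2 regions, while exons took 9.42% and 9.13%. Regions within 5 kb past a 3′ end made up 11.4% and 9.88%, and intergenic ones 12.8% and 15.4%. With both summits at 1.5 or more per 1000000 tags, promoters took 50.4% of 113 and 50.3% of 149 regions. Regions of 1 library are not replicates, so these intervals do not compare conditions.

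**Figure D4:**
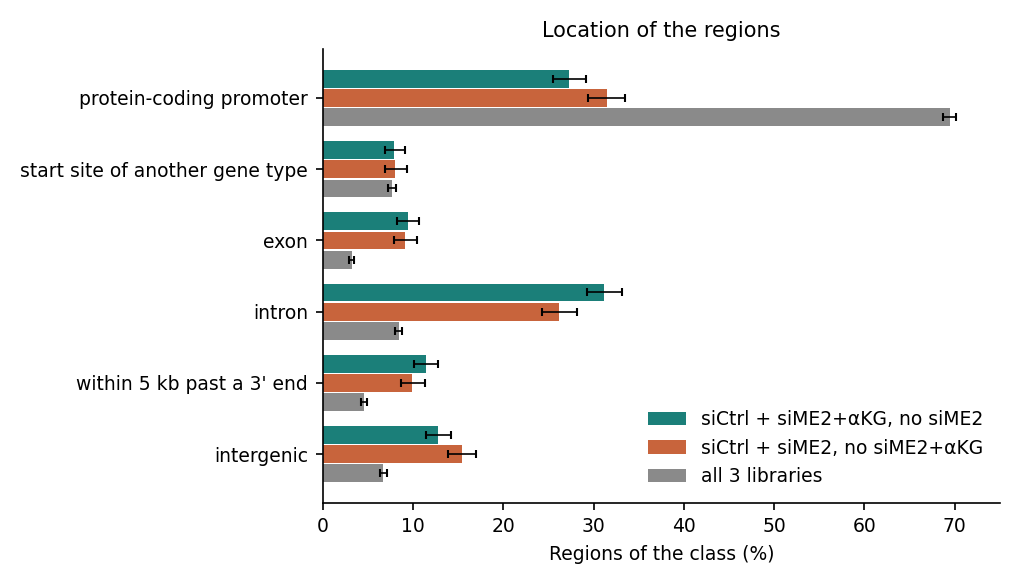
Location of the regions of each class (percent of the class, x), with 95% Clopper-Pearson intervals, for siCtrl/αKG regions, siCtrl/siME2 regions and regions with a peak in all 3 libraries. Promoters hold 27.3%, 31.4% and 69.4% and introns 31.2%, 26.1% and 8.40%.

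Many regions of both classes bordered on a peak of the absent library. The nearest siME2 peak was a median of 1209.5 bp from a siCtrl/αKG region, and 30.7% lay within 500 bp and 73.1% within 5 kb of one. In the mirror class the median was 1329.5 bp, with 31.6% within 500 bp and 66.2% within 5 kb. At the edge of the rule, 3 siCtrl/αKG regions touched a siME2 peak with no base between them, and the next lay 1 and 5 bp away. On the other side of it, the weakest siME2 peak that kept a region out of the class held 7 fragments at MTA1, a chromatin gene, with an authors' −log10 p of 5.00.

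In the 617 siCtrl/αKG regions at least 5 kb from any siME2 peak, promoters took 26.7% (23.3 to 30.4). Of the 678 such siCtrl/siME2 regions they took 35.5% (31.9 to 39.3). Of promoter regions, 47.1% (43.2 to 51.1) of siCtrl/αKG ones had the siCtrl summit within 300 bp of a start site, and 54.3% (50.3 to 58.2) of siCtrl/siME2 ones did. With a peak in every library 82.6% did. Regions were short, with a median of 558 bp (543 to 571) against 489.5 bp (475 to 501) in the mirror class and 1275 bp where every library had a peak.

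The siME2+αKG and siCtrl heights of siCtrl/αKG regions were close to each other. Their log2 ratio had a median of 0.08 (0.01 to 0.09), with the interval below 0 at 5 regions and above 0 at 2 of 2294. The siME2 to siCtrl ratio of the mirror class had the same median of 0.08 (0.05 to 0.09), with 1 region below and 4 above. In regions with a peak in every library the medians were −0.09 for siME2+αKG and −0.03 for siME2. By height, siME2+αKG was lower than siCtrl at 899 and higher at 1395 of the 2294 siCtrl/αKG regions. At the 29 cell cycle and histone list genes of this class it was mostly lower. The exceptions were RFC3, LIG1, AURKB, CDC45, EME1, CENPW and SMC3. These ratios are conditional on a peak in both libraries and describe the selected regions.

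Away from promoters, the leading siCtrl/αKG regions were low in fold or close to siME2 peaks in part. The first by the lower of the 2 heights, on chromosome 9 from 66455121 to 66456690, had 32 fragments in siCtrl and 43 in siME2+αKG over an input background of 8.17 fragments, and the authors' fold was 3.60. An intron of SEC14L1 held 30 in each library, 217 bp from a siME2 peak. An intron of SLC52A2, a riboflavin transporter gene, held 36 and 26, with the nearest siME2 peak 10022 bp away. An intergenic region on chromosome 4 from 1037649 to 1038038 held 24 and 29, and siME2 had no peak within 16238 bp. The widest siCtrl/αKG region spanned 3885 bp on chromosome 10 from 74086097 to 74089981, with 25 and 15 fragments.

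Some gene bodies collected many siCtrl/αKG regions. The genes named here were picked for that count, which favours a lower siCtrl/siME2 count beside it. BCAR3, an adaptor of adhesion signalling, held 10 siCtrl/αKG and 3 siCtrl/siME2 regions, and ERBIN, a scaffold of receptor signalling, 9 and 3. PABPC1, the cytoplasmic poly(A)-binding protein gene, held 10 and 0 over 36994 bp, with 10 to 19 fragments in siCtrl and 12 to 19 in siME2+αKG. Of these 10, 8 lay within 1 kb of an annotated start site and counted as promoter regions. EXT1, a heparan sulfate polymerase gene, held 9 and 0, all in introns. Regions with a peak in every library numbered 7 in BCAR3, 18 in ERBIN, 3 in PABPC1 and 4 in EXT1. In all, 23 of 1261 genes with a siCtrl/αKG summit in the body held 5 or more such regions. For siCtrl/siME2 regions it was 7 of 1155 genes, and that class was the smaller, with 2004 regions against 2294. Regions within 1 gene are not independent of each other.

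CCND1, which encodes cyclin D1, had a promoter region with a peak in every library and 3 siCtrl/αKG regions at and past its 3′ end. The first, from 69468230 to 69468488 on chromosome 11 in an exon, held 23 fragments in siCtrl and 20 in siME2+αKG and lay 200 bp from a siME2 peak. The second, from 69470881 to 69471252, held 15 and 12. The third, from 69477872 to 69478208, held 11 and 10, and both lay in an intron of the neighbour LTO1. For comparison, of regions with 21 to 25 siCtrl fragments, 8.25% of those with a siME2+αKG peak lacked siME2. In that band 9.89% of those with a siME2 peak lacked siME2+αKG. At 14 to 16 fragments these shares were 37.3% and 33.9%, and at 11 to 13 fragments 54.2% and 47.4%. ME2 had 1 region over its start with 71, 56 and 63 fragments and no siCtrl/αKG region, and an siRNA acts on the transcript, so this does not check the knockdown.

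**Figure D5:**
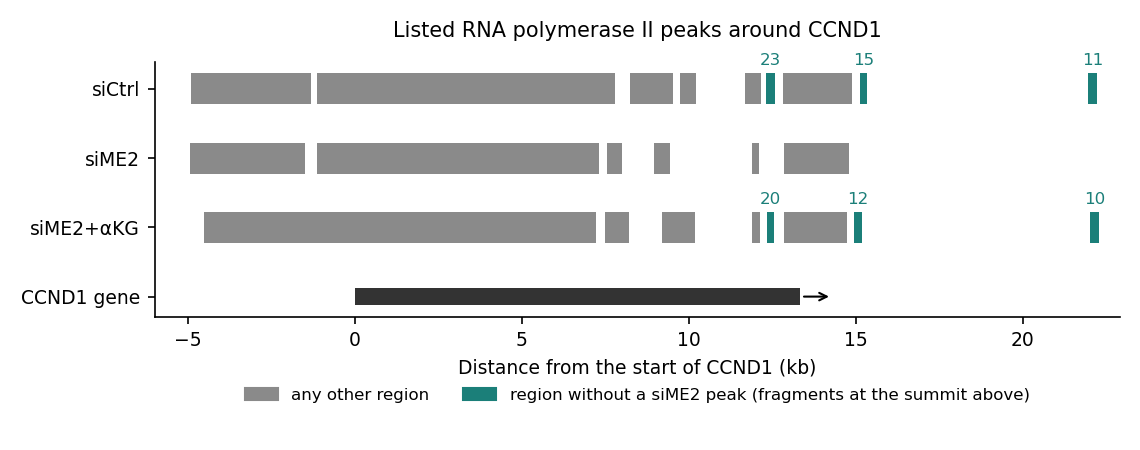
Listed peaks of each library around CCND1 by distance from its start (kb, x), with the gene as a dark bar and the arrow in its direction; green bars are the siCtrl/αKG regions with the fragments of their summits. The 3 green regions hold 23, 15 and 11 fragments in siCtrl and 20, 12 and 10 in siME2+αKG, and the row of siME2 has no bar there.

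Over all promoters of the classes, promoter sequence differed in base content, in the GC box and in TATAAA. Over 300-base windows placed as above, the GC content had a median of 57.3% (55.3 to 58.3) in siCtrl/αKG promoters, 62.0% (60.7 to 63.3) in siCtrl/siME2 promoters and 67.3% in promoters with a peak in every library. The GC box (GGGCGG), the site of SP1-like factors, was present in 35.5%, 51.9% and 72.7%, and in 61.5% of the windows at the main start site of all 19812 genes. The CHR letters were present in 16.1% (13.3 to 19.3), 10.95% (8.62 to 13.7) and 8.75%, and in 12.8% of all genes. These intervals overlap. TATAAA was found in 10.7% (8.39 to 13.4), 5.71% (4.03 to 7.82) and 4.30%, and in 9.65% of all genes. E2F letters were present in 3.83%, 3.65% and 4.73%, and in 4.38% of all genes. CCAAT was present in 30.4%, 28.9% and 32.1%, and in 36.0% of all genes. Both the CHR and TATAAA are rich in A and T, the GC content differed between the classes as given above, and its part in these shares was not tested.

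Among the 12 list genes without any siME2 promoter peak, 4 windows held an E2F match, 5 a CCAAT box and 6 the CHR. These 6 include the near-identical H4C11 and H4C12, with the CHR at −228 in both. The E2F match of LIG1, at −250, came from a window at another siCtrl/αKG region of LIG1, not the one described above. The MCM3 window shown above held E2F letters at −174 and −4 and CCAAT boxes at −242, −120 and −84, counted from the start site. That of SPC25 held CCAAT boxes at −88 and −56 and the CHR at −247 and −3, and RFC3 held E2F letters at −55. BUB1B held the CHR at −23. Of the windows of 5 leading siCtrl/siME2 genes without any siME2+αKG promoter peak, 0 held an E2F, CCAAT or CHR match. A match of letters describes the window and is no evidence of binding. The 12 genes were picked by their peaks and from lists of cell cycle and histone genes, and promoters of cell cycle genes often carry these motifs. The 5 were picked by peaks and height alone, so these windows do not compare the classes. Over all promoters of the classes the E2F and CCAAT shares were close. The CHR share was higher in siCtrl/αKG promoters, with intervals that overlap, as given above.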

How the data were processed

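Peak lists of 3 RNA polymerase II ChIP libraries were analysed, and input libraries entered only through the authors' peak calling. Per the submitters' processing notes, Bowtie2 2.3.5.1 and MACS2 2.2.6 were used on hg19, whereas the file headers name MACS 2.2.7.1, and the release behind the values is unclear. Calls were made on 1 ChIP library at a time against its own input at a p-value threshold of 1e-05, per the file headers. The deposited pileup is a signal, the extended fragments over a summit, which in siME2+αKG the authors' scaling had multiplied by 0.900, and dividing by it gave back fragments within 0.0055 of whole numbers. The deposited fold is a linear ratio over the local input, and the deposited −log10 p and −log10 q are the caller's values for each peak. These served only for ranking, filtering and describing single peaks.

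Peaks on chromosomes 1 to 22 and X were merged at 1 bp of overlap, and 71, 73 and 72 peaks elsewhere were left out. A region's height was its highest summit. Start sites came from GENCODE release 44 mapped to GRCh37, and sequences from the GRCh37 genome. Shares carry exact Clopper-Pearson intervals, ratios the exact conditional binomial, and medians order-statistic intervals, all at 95% and for counting error only. With 1 library per condition no test was made. The steps were checked on simulated peaks. The members, the 22 gene lists and the alternatives were chosen with earlier results of these data known. Named genes were the 24 and 12 leading promoters of the 2 classes by the lower of the 2 heights and up to 4 genes per list. The rule also took 8 and 4 leading regions elsewhere, the genes with most regions (1 of which is not reported here), the widest regions, those nearest the absent library, CCND1 and ME2. The 9 and 3 regions with the highest siCtrl summits and the height bands of the list promoters were added after the values were seen. Computation used Python 3.11.15 with scipy 1.17.1.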

Additional observations from a re-analysis of the deposited data

How the results depend on the processing

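The 12 results were computed again under 10 settings, which gave 90 values. Of these, 44 stayed within the error or within 1.5 times the count and 46 moved. The median log2 ratio of siCtrl/αKG regions, 0.08 as reported, lay below 0 in 1 setting, and the class with more regions changed in 2. Why values moved was not tested beyond what each setting itself changes, such as fewer peaks.

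Joining peaks across gaps of up to 500 bp left 1479 siCtrl/αKG and 1331 siCtrl/siME2 regions, with promoter regions at 24.8% of the first, median lengths of 760 and 605 bp and 1 list gene in the mirror class. With a −log10 q of at least 5 in all 3 lists, siCtrl/αKG regions had a median siCtrl height of 1.15 per 1000000 tags and a log2 ratio of 0.10, with lengths of 608 and 516.5 bp in the 2 classes. With that threshold for the present peaks alone, height and ratio were again 1.15 and 0.10, and the length was 581 bp. With both summits at 1.5 or more per 1000000 tags, 113 and 149 regions remained, with promoter shares of 50.4% and 50.3%, heights of 1.77 in both, log2 ratios of −0.049 (below 0) and 0.012, lengths of 590 and 472 bp, and 13 and 0 list genes. With the 25000 peaks of lowest p in each list, the promoter shares were 29.8% and 35.9%, the heights 1.23 and 1.31, the mirror ratio 0.036, the lengths 654 and 531.5 bp, and the mirror class had 2 list genes. With no peak of the absent library within 5 kb, 617 and 678 regions were left, with a promoter share of 35.5% in the mirror class, heights of 1.15 and 1.23, lengths of 529 and 454 bp, and 17 and 0 list genes. A promoter window of 500 bp gave shares of 20.97% and 26.6%, and one of 2 kb gave 37.2% and 41.1%.

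No paired analysis was possible because each condition had 1 library, and for the same reason no library was left out in turn. A list gives no count where no peak was called, and the siME2 level at the siCtrl/αKG regions is not known.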

Other observations

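SFPQ, a splicing factor gene of 17069 bp, held 8 siCtrl/αKG regions, 1 siCtrl/siME2 region and 2 regions with a peak in every library. The 8 had 11 to 19 fragments in siCtrl and 12 to 19 in siME2+αKG, and 7 of them counted as promoter regions. PHLDB2, a gene of cortical microtubule anchoring, held 8 siCtrl/αKG and 0 siCtrl/siME2 regions, all in introns. CD44, a hyaluronan receptor gene, held 7 and 1, and AARS1, the alanyl-tRNA synthetase gene, held 6 and 1, whereas the neprilysin gene MME held 7 of each. These genes too come from a ranking by siCtrl/αKG count, which favours a lower count of the mirror class. By chromosome, siCtrl/αKG regions made up between 6.996% (chromosome 18) and 15.1% (chromosome 8) of the regions with both peaks, and chromosome 11 stood at 15.01%. In the mirror class the share ran from 4.87% on chromosome 4, where the siCtrl/αKG share was 10.5%, to 15.1% on chromosome 21.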
